A study of Mus musculus with 4 samples.

Results

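The opioid genes considered here are the 4 receptor genes Oprk1 (kappa), Oprm1 (mu), Oprd1 (delta) and Oprl1 (nociceptin), and the 3 peptide precursor genes Pdyn (prodynorphin), Penk (proenkephalin) and Pnoc (prepronociceptin). They were chosen by name, as the family of receptors and their peptides, and all 7 were among the 31053 genes of the matrices. The libraries came from the microdissected prelimbic and infralimbic areas of the ventromedial prefrontal cortex of male C57BL/6 mice, all injected at 8 weeks of age with 5 retrograde AAVs, each carrying EGFP under a short CAG promoter and a barcode for 1 target: agranular insula, dorsomedial striatum, mediodorsal thalamus, basolateral amygdala or lateral hypothalamus. The authors left several weeks between injection and dissection for retrograde labelling, so the mice were older than 8 weeks when cells were taken. Brain slices were kept with the glutamate receptor blockers CNQX and D-AP5 during preparation, and no uninjected animal was included. The 3 unsorted libraries held 1 mouse each, and a single sorted library pooled EGFP-positive cells of 3 mice. Transcripts were counted as unique molecular identifiers (UMIs) with droplet 3' sequencing, and the 7 excitatory subtypes, named after layer and a leading gene, were those assigned by the authors.

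Opioid receptors couple to inhibitory Gi and Go proteins, lower cyclic AMP, open inwardly rectifying potassium channels and close presynaptic calcium channels. Dynorphins from prodynorphin prefer the kappa receptor, enkephalins from proenkephalin the mu and delta receptors, and nociceptin its own receptor, which binds classical opioid ligands poorly. In the prefrontal cortex the precursors are known as neuropeptides of interneurons and of some pyramidal cells, and the dynorphin and kappa system is studied for its part in stress and aversion.

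Without sorting, 8040, 7443 and 7243 cells were recovered at 83065993 to 87841541 UMIs per library, and the sorted pool gave 2075 cells at 54749198 UMIs. The authors' annotation covered 9368 excitatory neurons, 7765 of them unsorted. Inhibitory cells were taken as those outside this annotation with at least 4 UMIs of Gad1 and Gad2 and at most 3 of Slc17a7, which gave 464, 482 and 407 cells without sorting. Only 6 were found after the sort, too few to use. A level (CPM) is the summed UMIs of a gene in 1 library and cell group, per 1000000 UMIs of all genes in that sum. The defining markers followed the labels: the vesicular glutamate transporter gene Slc17a7 stood at 1033 CPM in excitatory neurons and 12.1 in inhibitory cells, and the GABA transporter gene Slc32a1 at 0.391 and 351.1. Each of the 7 subtypes had its own label gene highest. Of the inhibitory cells, 77 (5.69%) also carried markers of non-neuronal cells, and pairs of libraries shared 5 to 30 cell barcodes. No doublet caller was run. Intervals and upper limits given below cover counting error only.

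Positions are those of GRCm38 with the GENCODE annotation. The kappa receptor gene Oprk1 (ENSMUSG00000025905) lies at chr1:5588466-5606131 on the plus strand, Oprm1 (ENSMUSG00000000766) at chr10:6758506-7038198 on the plus strand, Oprd1 (ENSMUSG00000050511) at chr4:132110726-132144486 on the minus strand and Oprl1 (ENSMUSG00000027584) at chr2:181715016-181720985 on the plus strand. The precursor genes Pdyn (ENSMUSG00000027400) at chr2:129686565-129699844, Penk (ENSMUSG00000045573) at chr4:4133531-4138819 and Pnoc (ENSMUSG00000045731) at chr14:65400673-65425472 are all on the minus strand. Exons of Oprm1 are overlapped by those of Ipcef1 on the other strand, and exons of Penk by A830012C17Rik, which was not a row of the matrices. The 3' kit keeps the strand of a transcript, but how the counting used strand is not given in the sources used here.

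The RefSeq table (GRCm38.p6) held starts for 4 of the 7 genes. The 250 bases before the start nearest the GENCODE one are printed 5' to 3' on the strand of the gene, to show how unlike the start regions of these receptors and of prodynorphin are in base composition. Capitals mark a match to 1 of 4 motifs searched on both strands: TGACG (the core of the cyclic AMP response element), TGACTCA (the AP-1 site), TGACAAACA (an AP-1-like element described for prodynorphin) and TATAAA (the TATA box). No match overlapped another.
Pdyn, chr2:129699939-129700188, minus strand: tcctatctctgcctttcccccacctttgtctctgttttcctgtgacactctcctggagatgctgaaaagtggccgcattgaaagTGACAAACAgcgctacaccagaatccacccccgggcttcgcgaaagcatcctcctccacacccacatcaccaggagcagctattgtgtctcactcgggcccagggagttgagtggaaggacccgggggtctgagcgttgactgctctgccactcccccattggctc
Oprl1, chr2:181714766-181715015, plus strand: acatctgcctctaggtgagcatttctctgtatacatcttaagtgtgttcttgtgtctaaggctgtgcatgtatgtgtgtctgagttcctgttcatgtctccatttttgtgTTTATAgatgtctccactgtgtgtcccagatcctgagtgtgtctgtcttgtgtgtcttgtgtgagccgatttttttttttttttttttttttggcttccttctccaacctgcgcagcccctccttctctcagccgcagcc
Oprm1, chr10:6758343-6758592, plus strand: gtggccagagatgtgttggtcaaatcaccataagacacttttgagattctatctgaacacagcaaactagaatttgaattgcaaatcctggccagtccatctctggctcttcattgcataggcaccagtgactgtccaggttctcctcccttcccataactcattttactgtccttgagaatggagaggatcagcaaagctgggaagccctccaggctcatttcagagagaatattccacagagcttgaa
Oprd1, chr4:132144487-132144736, minus strand: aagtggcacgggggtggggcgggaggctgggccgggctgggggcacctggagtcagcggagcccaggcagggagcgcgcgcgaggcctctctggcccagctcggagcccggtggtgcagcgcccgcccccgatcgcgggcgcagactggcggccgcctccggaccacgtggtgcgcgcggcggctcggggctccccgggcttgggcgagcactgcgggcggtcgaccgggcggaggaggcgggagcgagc
The Pdyn window held TGACAAACA, a string found in 0.2742% of the 32817 windows of this length in the table. The Oprl1 window held TATAAA on its other strand, as did 12.37% of all windows on either strand, and the Oprm1 and Oprd1 windows held none of the 4. TGACG was found in 17.75% of all windows and TGACTCA in 4.464%. The Oprd1 window had more G and C than 98.77% of all windows and, with 34 CpG dinucleotides, more CpG than 96.47% of them, whereas the Oprm1 window was 45.6% G and C with 0 CpG. Medians over all windows were 52.4% and 6 CpG. Oprk1, Penk and Pnoc had no entry.

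Each receptor had its own distribution over neuron groups, and Oprk1 was the one set apart by a single excitatory subtype, L6-Npy. Levels over the authors' subtypes are given as a description with no test, since the subtypes were themselves clustered on expression. In L6-Npy neurons (295, 267 and 275 cells) Oprk1 stood at 85.1, 95.1 and 90.1 CPM in unsorted libraries 1 to 3 (90.1 ± 4.99, SD, n = 3). The sorted pool gave 103.8 CPM (95% exact Poisson interval 96.5 to 111.5). No other neuron group came near these values in any library: the next, L2/3-Rorb, had 5.18, 1.92 and 8.26 CPM, L5-S100b 4.96, 3.42 and 5.14, and inhibitory cells 4.64, 3.45 and 4.36, and these 3 overlapped. The L6-Npy mean was 17.59 times that of the next group. Oprk1 was near absent from the most numerous subtype, L6-Syt6, at 0.264, 0.458 and 0.454 CPM, although the sorted pool there read 1.60 (1.16 to 2.16). In L2/3-Calb1 its 3.44 CPM in unsorted 2 came from 7 UMIs in 1 cell, with 1.54 and 0 CPM in the other libraries.

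The share of L6-Npy cells with at least 1 Oprk1 UMI was 61.7%, 67.8% and 65.8%, and 70.8% in the sorted pool (95% exact binomial interval 65.1% to 76.1%). In microglia, which should lack the gene, the mean share was 0.0585% (median depth 3697 UMIs per cell against 19937 in L6-Npy). With each cell thinned to 10000 UMIs, and shallower cells left out, the L6-Npy shares were 47.5%, 51.9%, 47.8% and, sorted, 52.7%.

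The mu receptor gene Oprm1, whose product is the main target of morphine, was highest in inhibitory cells, with 7.27, 6.60 and 5.37 CPM (6.42 ± 0.963, SD, n = 3). L5-Htr2c came next with 4.08, 2.79 and 2.61 CPM, then L6-Syt6 with 1.46, 1.34 and 1.48 and L5-S100b with 0.709, 0.342 and 0.671. These 4 groups did not overlap between neighbours in the order. In L2/3-Calb1 no Oprm1 UMI was seen in 317 unsorted cells, which allows a share of up to 0.946%. A UMI was seen in 8.84%, 7.88% and 7.13% of inhibitory cells (median depth 13159 UMIs) and in 0 of 3503 microglia, which allows up to 0.0856%.

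The delta receptor gene Oprd1 was low in every group, so that its order was poorly resolved at this depth. Inhibitory cells had 2.48, 1.65 and 2.85 CPM, L2/3-Rorb 1.13, 2.47 and 1.12, and L6-Syt6 1.73, 1.10 and 1.48. The first 6 groups in the order overlapped from neighbour to neighbour. The lowest were L5-Bcl6 with 0, 0.426 and 0.451 CPM and L5-Htr2c with 0, 0 and 0.652.

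The nociceptin receptor gene Oprl1 was the one receptor found in every neuron group at similar levels. L5-Bcl6 was highest with 42.5, 37.5 and 35.6 CPM (38.5 ± 3.57, SD, n = 3) and overlapped L5-Htr2c with 37.3, 37.7 and 35.2. The other 5 excitatory subtypes ran from 20.8 to 29.0 CPM over the unsorted libraries, and inhibitory cells had 20.3, 18.6 and 21.5. In all 6 subtypes with at least 10 sorted cells the sorted pool was above each unsorted library, with 49.6 CPM (40.4 to 60.3) in L5-Bcl6 and 39.5 CPM (33.3 to 46.5) in L2/3-Rorb. The sorted cells were also deeper (median 31670 UMIs per excitatory neuron against 21362 to 23213), and whether depth, the sort or the animals moved Oprl1 cannot be told apart with 1 sorted library. A UMI was found in 54.8%, 60.6% and 55.8% of unsorted L5-Bcl6 cells (median depth 23703) and in 0.164%, 0.427% and 0.631% of microglia.

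Outside neurons, Oprl1 was also present in oligodendrocyte-precursor-like cells, a class called from marker genes. It had 66.8, 92.8 and 70.8 CPM there (76.8 ± 14.0, SD, n = 3), over 360, 343 and 293 cells with a median depth of only 3855.5 UMIs. A UMI was found in 20.6%, 26.5% and 22.9% of these cells, 232 cells in all, 185 of them with a single UMI. Shares were also taken with cells thinned to 2000 UMIs and shallower cells left out. They were 12.3%, 15.6% and 12.4%, against 7.52%, 13.8% and 11.6% in L5-Bcl6 neurons and a mean of 0.197% in microglia. The oligodendrocyte-precursor-like cells held no UMI of Oprk1, Oprm1, Oprd1 or Penk, and 2 each of Pdyn and Pnoc.

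Pdyn was shared by 2 excitatory subtypes and the inhibitory cells and was near absent elsewhere. In L5-Bcl6 it stood at 31.2, 41.3 and 51.8 CPM with 38.8 (30.7 to 48.3) in the sorted pool, and in L2/3-Calb1 at 37.5, 27.5 and 38.7 with 60.8 (47.1 to 77.2) in the sorted pool. Inhibitory cells had 32.6, 47.9 and 42.5 CPM. The 3 groups overlapped, and no other subtype passed 1.65 CPM in an unsorted library. The L5-Bcl6 level depended on cells with many mitochondrial UMIs, and it lay in few cells. The 5 highest unsorted L5-Bcl6 cells held 56.77% of its Pdyn UMIs. With cells limited to under 10% mitochondrial UMIs the L5-Bcl6 level was 12.6 to 20.2 CPM (15.4 ± 4.15, SD, n = 3). This was below L2/3-Calb1 (27.8 to 38.0) and inhibitory cells (38.7 to 53.0), and the 3 groups no longer overlapped. The share of cells with a UMI set these groups apart: 37.8%, 36.5% and 41.2% in L2/3-Calb1 (median depth 18593), 22.2%, 21.3% and 18.6% in L5-Bcl6, 4.74%, 6.64% and 4.91% in inhibitory cells and a mean of 0.140% in microglia. In the sorted pool the shares were 57.5% (40.9% to 73.0%) of 40 L2/3-Calb1 cells and 31.3% (20.6% to 43.8%) of 67 L5-Bcl6 cells.

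Penk was highest in inhibitory cells, with 66.7, 90.4 and 74.4 CPM. L6-Npy, the subtype that also held Oprk1, came next with 10.5, 6.65 and 14.9 CPM and 14.2 (11.6 to 17.3) in the sorted pool. In L2/3-Calb1 it read 3.60, 3.93 and 5.81 CPM and 0 in the 40 sorted cells (upper limit 3.35 CPM). No Penk UMI was seen in 317 L5-Htr2c cells, which allows up to 0.946%. Shares of cells were 22.4%, 25.9% and 29.2% for inhibitory cells, 11.5%, 10.9% and 16.4% for L6-Npy and a mean of 0.0886% for microglia.

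Pnoc was the most one-sided of the 7, with 146.2, 143.5 and 142.9 CPM in inhibitory cells. L5-Htr2c was the nearest excitatory subtype with 4.08, 2.09 and 5.22 CPM, a mean 37.98 times lower, and no other subtype passed 1.58 CPM in an unsorted library. The 1603 sorted excitatory neurons held 2 Pnoc UMIs, or 0.0389 CPM. Shares of cells were 43.1%, 44.4% and 44.7% for inhibitory cells, 4.92%, 3.09% and 4.08% for L5-Htr2c (median depth 14549) and a mean of 0.170% for microglia.

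**Figure D1:**
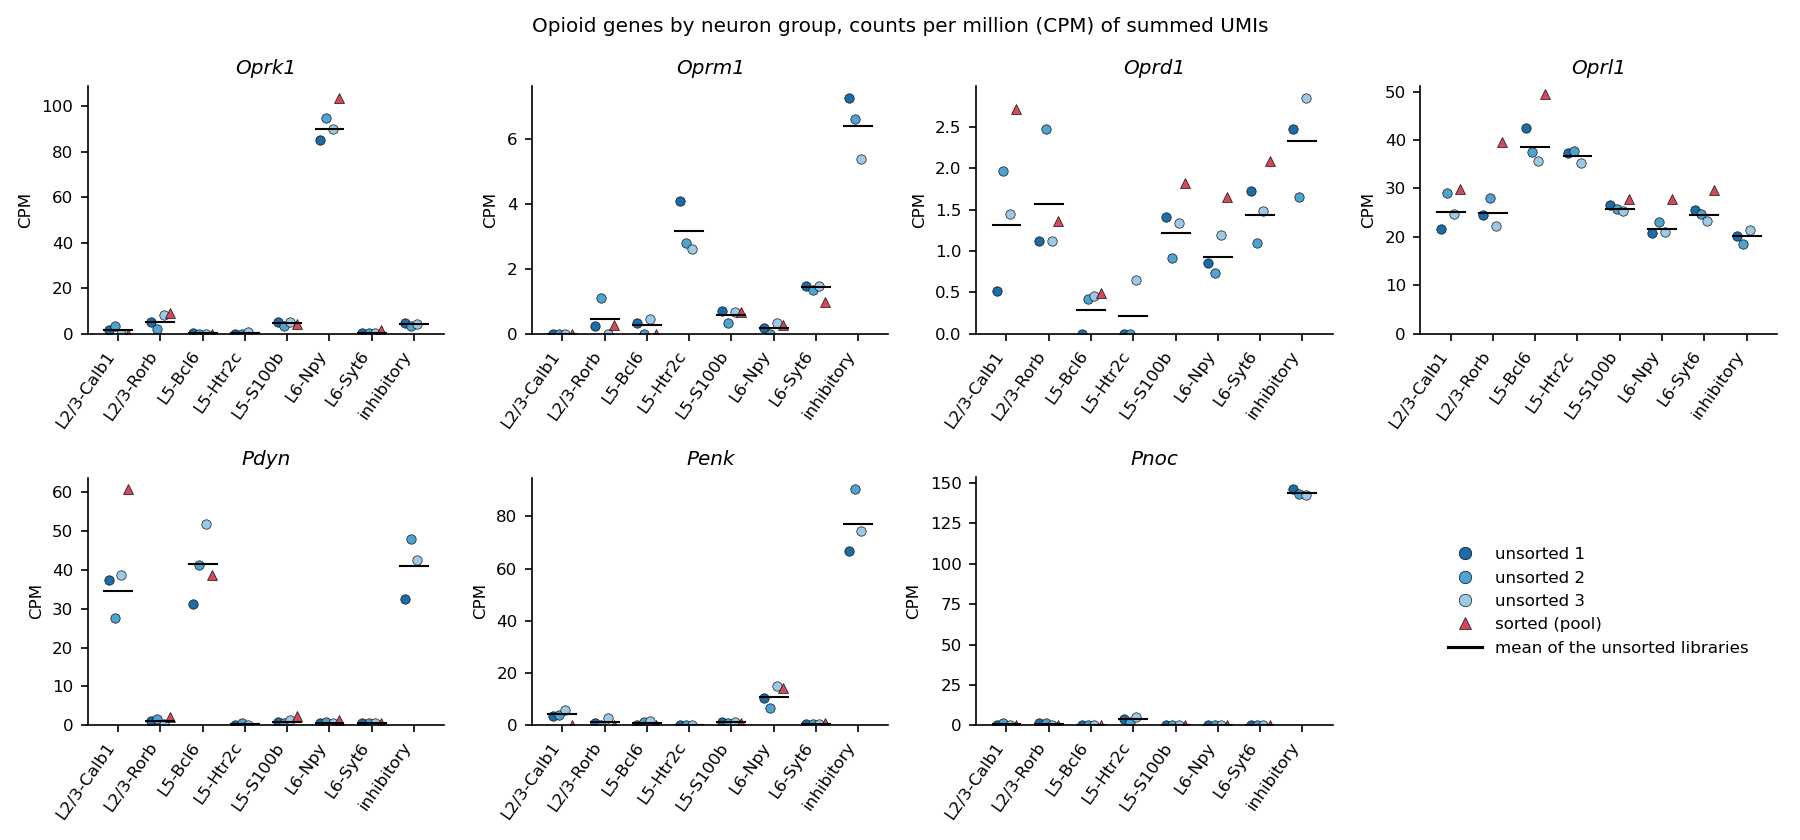
Levels of the 7 opioid genes in CPM (vertical axes, linear from 0) in the 7 excitatory subtypes and in inhibitory cells. Dots are the 3 unsorted libraries, bars their mean and triangles the sorted pool. Oprk1 stands at 85.1 to 103.8 CPM in L6-Npy alone, Oprl1 is spread over every group, Pdyn is high in L2/3-Calb1, L5-Bcl6 and inhibitory cells, and Penk and Pnoc are highest in inhibitory cells.

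For 4 of the 7 genes (Oprk1, Oprm1, Penk and Pnoc) the highest of the 8 neuron groups was above the next in every unsorted library. The same held for 40.6% of the 10621 genes with a mean of at least 5 CPM over the groups, a mean that Oprm1 and Oprd1 did not reach. The count was 5 with Pdyn added when cells were limited to under 10% mitochondrial UMIs, and 5 with Oprd1 added when unsorted library 2 was left out. By share of cells the count was 6, all but Oprd1, and it was 5 with cells thinned to 10000 UMIs. The share over all genes was computed only for the main CPM count, so the other counts have no such comparison.

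The inhibitory cells of each unsorted library were then tested against the excitatory neurons of the same library with edgeR's quasi-likelihood test, with the library as a block. Of the 7765 excitatory neurons 4319 were L6-Syt6, so the excitatory sums weigh that subtype most, here and for the pathway list below. Calls required an adjusted p (Benjamini-Hochberg, over all 15765 genes tested) under 0.05, and a difference of 0.5 or more on the log2 scale in either direction. All 3 precursors rose in inhibitory cells, together with Oprm1 and Oprd1, while Oprk1 fell. That is 6 of 7 members called, 5 higher and 1 lower, where 40.7% of all genes tested were called (21.0% higher and 19.7% lower). In bulk sums of this kind, fewer cells with a gene and less RNA of it per cell cannot be told apart.

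Pnoc averaged 144.2 CPM in inhibitory cells and 0.354 in excitatory neurons (log2 fold change 8.54, SE 0.0836, adjusted p = 5.54e-34). Penk averaged 77.1 against 1.73 CPM (5.36, SE 0.119, adjusted p = 2.11e-25), and Pdyn 41.0 against 3.54 CPM (3.41, SE 0.102, adjusted p = 4.07e-22). The excitatory mean of Pdyn was carried by the L2/3-Calb1 and L5-Bcl6 subtypes, whose levels overlapped those of the inhibitory cells only without the 10% mitochondrial limit.

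Among the receptors, Oprm1 averaged 6.42 CPM in inhibitory cells and 1.05 in excitatory neurons (log2 fold change 2.49, SE 0.216, adjusted p = 2.94e-11), and Oprk1 4.15 against 10.2 CPM (-1.41, SE 0.144, adjusted p = 1.05e-09). The Oprk1 difference sets inhibitory cells against a mean that L6-Npy dominates. Oprd1 averaged 2.33 against 1.27 CPM (0.74, SE 0.278, adjusted p = 0.0206), and this call was lost without unsorted library 1 (adjusted p = 0.0682), without unsorted library 3 (adjusted p = 0.118) and under DESeq2 (adjusted p = 0.126). Oprl1 averaged 20.1 against 25.4 CPM and was lower in inhibitory cells in 3 of 3 libraries, with a log2 fold change of -0.46 that stayed under the size limit (SE 0.0773, adjusted p = 6.58e-06). Without unsorted library 3 it reached -0.53 and was called.

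Within the inhibitory cells, the opioid genes divided among the cardinal interneuron classes. Cells were assigned to Sst, Vip, Lamp5 or Pvalb when they held at least 3 UMIs of 1 of these genes and at least 80% of the UMIs of the 4, which placed 409 cells in Sst, 489 in Vip, 87 in Lamp5 and 40 in Pvalb and left 328 unassigned. Separately, 431 cells were assigned to Lhx6 and 829 to Adarb2, transcription factor and RNA-editing family genes that mark interneurons of medial and caudal ganglionic eminence origin. The groupings share cells: 364 of the Sst cells were also Lhx6 cells, and 483 of the Vip and 84 of the Lamp5 cells were Adarb2 cells. Pvalb cells numbered 15, 16 and 9 in the 3 libraries, so no test was run on them.

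Pdyn in the marker-assigned cells lay almost wholly in Sst cells. Their Pdyn level was 86.2, 131.8 and 108.5 CPM, in 15.3%, 22.1% and 15.5% of cells (median depth 17425), against a mean of 0.125 CPM in the other marker-assigned cells, where 1 UMI was seen. The ratio was 774.6 with a 95% counting interval of 138.6 to 30630 (edgeR adjusted p = 8.71e-18). No Pdyn UMI was seen in Lamp5 or Pvalb cells.

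All 4 receptors also rose in Sst cells relative to the other marker-assigned cells. With Pdyn up and Penk and Pnoc down, 7 of 7 members were called, where 20.6% of 11494 genes tested were called (9.54% higher and 11.1% lower). Oprl1 had 35.1, 27.4 and 38.2 CPM in Sst cells against a mean of 10.4 in the others (log2 fold change 1.69, SE 0.179, adjusted p = 5.47e-08). Oprm1 had 13.5, 15.8 and 8.57 CPM against 3.20 (2.02, SE 0.368, adjusted p = 1.18e-04). Oprk1 had 7.35, 6.65 and 8.57 CPM against 2.27 (1.72, SE 0.398, adjusted p = 0.00147). For Oprd1 the Sst values were 5.31, 3.74 and 6.43 CPM against 0.871 (2.53, SE 0.567, adjusted p = 0.00109). The Oprk1 and Oprd1 calls were lost under DESeq2, with adjusted p = 0.112 and 0.0665. Oprd1 fell below the filter on low counts, and so had no fit, without unsorted library 1, without unsorted library 3 or with no library block, here and in the Vip and lineage comparisons that follow.

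Penk was highest in Vip cells. They held 244.3, 267.8 and 193.6 CPM, in 50.3%, 55.2% and 56.3% of cells (median depth 9488), against a mean of 14.6 CPM in the other marker-assigned cells (log2 fold change 4.04, SE 0.127, adjusted p = 2.03e-16). Sst cells stood at 14.7, 18.7 and 20.1 CPM, below the pooled rest of the marker-assigned cells (log2 fold change -3.21, SE 0.112, adjusted p = 7.50e-17). Of the 616 cells in that rest, 489 were Vip cells. By class, the Sst mean of 17.9 CPM was second to Vip, with 5.70 CPM in Lamp5 and 0 UMIs in the 40 Pvalb cells.

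The receptors were sparse in Vip cells. Of the 7 members, 6 were called in Vip cells, Penk and Pnoc higher and Pdyn, Oprm1, Oprd1 and Oprl1 lower, where 22.2% of 11533 genes were called (11.2% higher and 11.0% lower). No Oprd1 UMI was seen in 489 Vip cells, which allows a share of up to 0.6135%, and its level was at least 7.759-fold lower than in the other marker-assigned cells (adjusted p = 1.83e-04). Oprl1 had 6.81, 8.05 and 10.0 CPM against 29.6 (log2 fold change -1.80, SE 0.202, adjusted p = 3.03e-07). Oprm1 had 3.40, 1.61 and 5.90 CPM against 10.1 (-1.47, SE 0.388, adjusted p = 0.00481), a call that was lost without unsorted library 2 (adjusted p = 0.0874) and under DESeq2 (adjusted p = 0.138). Oprk1, at 4.08, 2.68 and 2.95 CPM, was not called (-0.84, SE 0.403, adjusted p = 0.115).

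Lamp5 cells had the highest Pnoc. Their levels were 676.7, 551.0 and 550.0 CPM, in 87.5%, 90.6% and 95.7% of cells (median depth 14670), against a mean of 104.1 CPM in the other marker-assigned cells (log2 fold change 2.48, SE 0.086, adjusted p = 3.41e-32). Vip cells followed with 253.2, 228.1 and 214.3 CPM, also above the rest (1.21, SE 0.068, adjusted p = 4.76e-12), while Sst cells had 32.3, 10.8 and 36.0 CPM (-3.35, SE 0.144, adjusted p = 3.89e-15).

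In Lamp5 cells 4 of the 6 members tested were called, Pnoc higher and Pdyn, Penk and Oprk1 lower. Over all genes 16.9% of 11549 were called (7.13% higher and 9.77% lower). Oprd1 fell below the filter on low counts in this comparison and had no fit. Penk had 0, 1.97 and 15.1 CPM against a mean of 100.2 (log2 fold change -4.44, SE 0.343, adjusted p = 1.89e-16). No Oprk1 UMI was seen in the 87 Lamp5 cells, a level at least 2.267-fold lower than in the others (adjusted p = 0.0175), and this call was lost when any 1 of the 3 libraries was left out (adjusted p = 0.0509 to 0.0653) and under DESeq2 (adjusted p = 0.157). Oprm1 was lower by a ratio of 3.562 with a counting interval of 1.187 to 17.54, and was not called (adjusted p = 0.0702).

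Between the Lhx6 and Adarb2 lineages all 7 members were called, where 21.6% of 11881 genes were (10.4% higher and 11.2% lower). The 4 receptors and Pdyn were higher in Lhx6 cells, and Penk and Pnoc higher in Adarb2 cells. Oprd1 read 5.57, 2.64 and 6.90 CPM in Lhx6 cells and had no UMI in 829 Adarb2 cells, which allows a share of up to 0.3619%, so that it was at least 17.18-fold higher in Lhx6 cells (adjusted p = 6.66e-07). Pdyn was higher by a ratio of 512.6 (counting interval 141.4 to 4240, adjusted p = 1.55e-26).

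Of the other receptors, Oprl1 had 33.1, 24.9 and 36.1 CPM in Lhx6 cells and 10.5, 13.2 and 10.3 in Adarb2 cells (log2 fold change 1.45, SE 0.173, adjusted p = 8.01e-09), and Oprm1 11.5, 13.6 and 7.30 against 2.63, 1.35 and 3.76 CPM (2.09, SE 0.349, adjusted p = 5.99e-06). Oprk1 had 5.57, 6.03 and 6.90 against 3.50, 1.89 and 1.88 CPM (1.34, SE 0.393, adjusted p = 0.00621), a call lost without unsorted library 3 (adjusted p = 0.0699) and under DESeq2 (adjusted p = 0.251). In Lhx6 relative to Adarb2 cells, Penk (log2 fold change -2.93, SE 0.113, adjusted p = 1.05e-22) and Pnoc (-3.11, SE 0.107, adjusted p = 2.54e-24) were lower.

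In the 31 Pvalb cells of the 2 libraries with at least 10, the levels of Oprd1 were 8.46 and 3.33 CPM and those of Oprl1 14.1 and 9.99 CPM. Pnoc stood there at 11.3 and 9.99 CPM. All 40 Pvalb cells together held 6 Oprd1 UMIs, too few to place them against Sst cells.

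**Figure D2:**
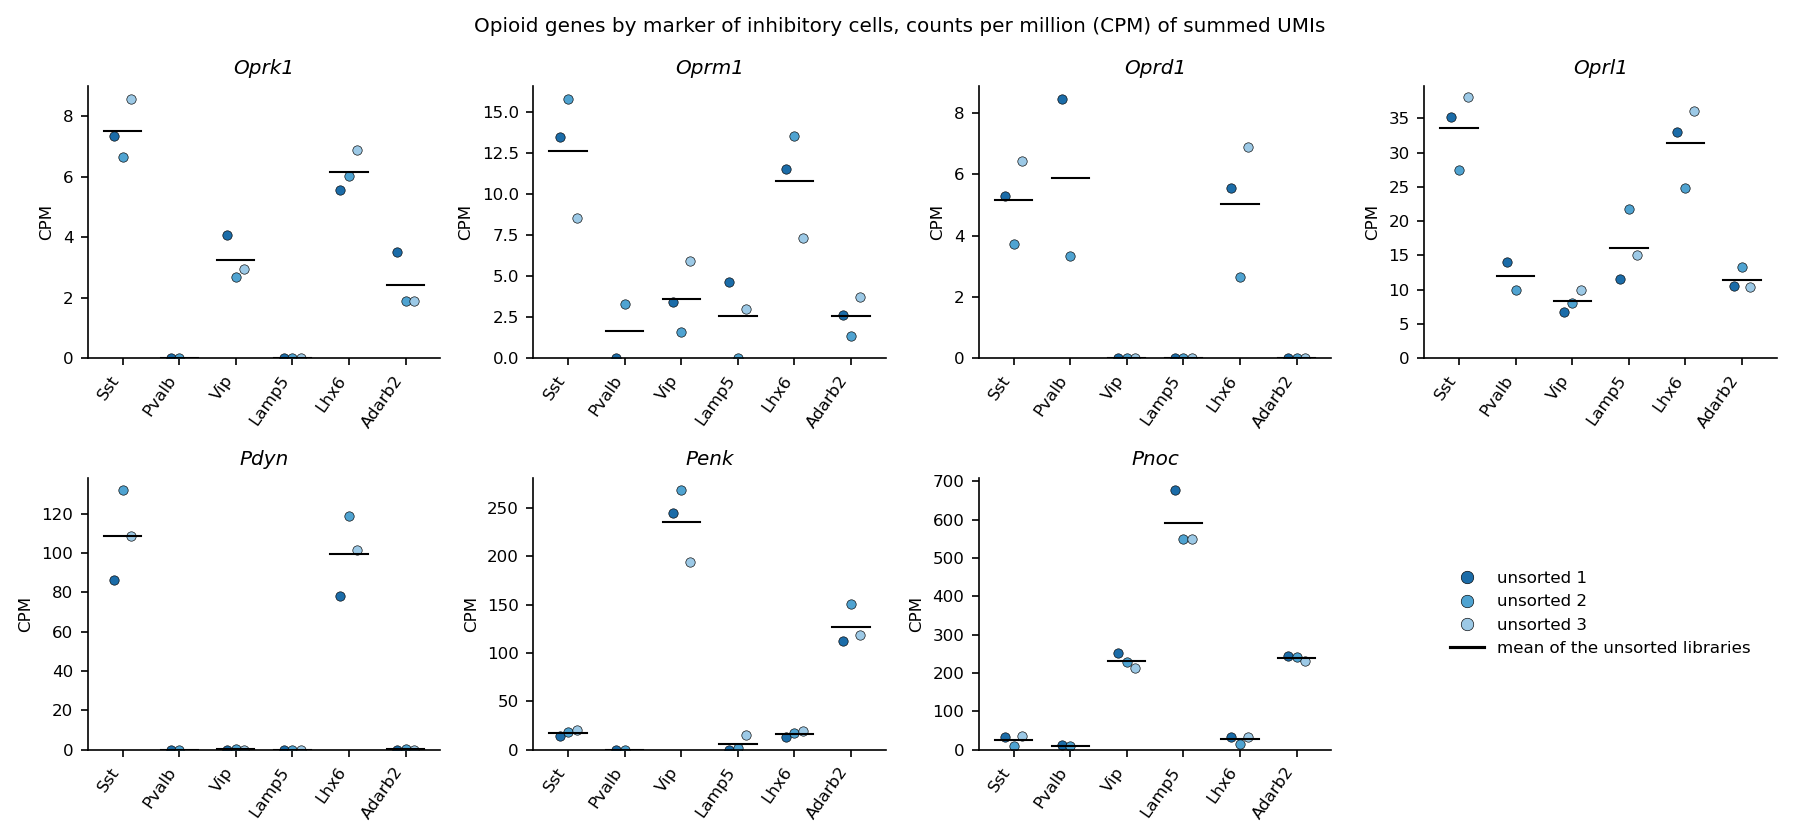
Levels of the 7 opioid genes in CPM (vertical axes, linear from 0) in Sst, Pvalb, Vip, Lamp5, Lhx6 and Adarb2 inhibitory cells of the 3 unsorted libraries. Dots are libraries with at least 10 such cells (2 for Pvalb) and bars their mean. Pdyn sits in Sst and Lhx6 cells, Penk in Vip and Adarb2 cells, Pnoc peaks in Lamp5 cells at 550.0 to 676.7 CPM, and Oprd1 has no UMI in Vip, Lamp5 or Adarb2 cells.

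How the UMIs were spread over cells differed between groups. The mean Pdyn levels compared here were 41.4 CPM in L5-Bcl6, 34.6 in L2/3-Calb1 and, higher, 108.8 in Sst cells. Pdyn had 303 UMIs in 66 unsorted L5-Bcl6 cells, and 10 cells (3.175% of the subtype) with at least 5 UMIs held 72.28% of them, up to 77 in 1 cell. None of these 10 had 4 or more UMIs of Gad1 and Gad2. In L2/3-Calb1 the 209 Pdyn UMIs lay in 122 cells, and 5 cells with at least 5 UMIs held 13.88%, with a highest cell of 9. In Sst cells 72 cells held 781 Pdyn UMIs, and 37 of them with at least 5 UMIs (9.046% of Sst cells) held 89.63%. A single Pdyn UMI was held by 59.09% of the positive cells in L5-Bcl6 and 63.11% in L2/3-Calb1, against 19.44% in Sst, so that most positive L5-Bcl6 cells were weakly positive and a few carried most of the UMIs.

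Oprk1 in L6-Npy was spread broadly, with 1535 UMIs in 544 of 837 unsorted cells, 173 of them with a single UMI, and at most 11 in 1 cell. The 99 cells with at least 5 UMIs (11.83%) held 40.52% of the Oprk1 UMIs. Penk was found in 264 of 489 Vip cells, and 102 cells (20.86%) with at least 5 UMIs held 70.15%. Pnoc was found in 79 of 87 Lamp5 cells, of which 64 (73.56% of Lamp5 cells) had at least 5 UMIs, and in 287 of 489 Vip cells, of which 104 (21.27%) had at least 5.

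**Figure D3:**
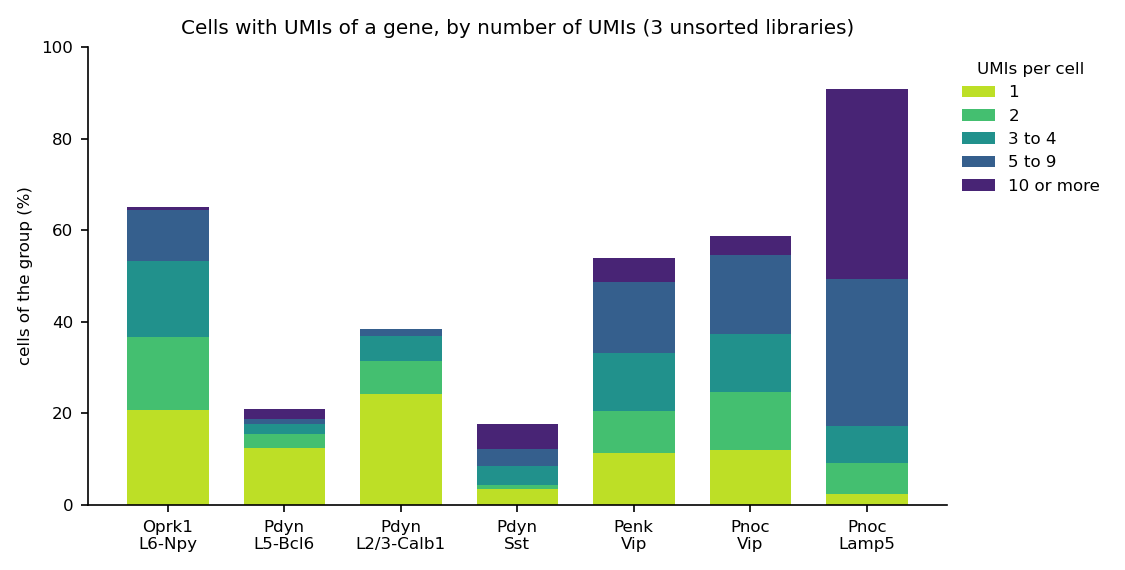
Percent of unsorted cells (vertical axis) with 1, 2, 3 to 4, 5 to 9, or 10 or more UMIs of a gene, stacked, for the 7 pairs of gene and cell group with the main signal. Pnoc in Lamp5 cells has the tallest upper segments, Pdyn in Sst cells is made mostly of cells with at least 5 UMIs, and Pdyn in L2/3-Calb1 mostly of cells with 1 or 2.

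Excitatory neurons with peptide UMIs were checked for inhibitory markers. Of 7765 unsorted excitatory neurons, 16 (0.2061%) had at least 4 UMIs of Gad1 and Gad2. The count was 4 of 45 with a Pnoc UMI (8.889%), 4 of 193 with a Penk UMI (2.073%) and 0 of 287 with a Pdyn UMI. Of the 4 excitatory neurons with 3 or more Pnoc UMIs, 3 carried these markers, against 1 of 20 with 3 or more Penk UMIs. Part of the low excitatory Pnoc thus lay in cells with mixed markers, and whether such cells are doublets was not tested.

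Co-detection within a cell is given as a description, since cells of 1 library share their source and deeper cells show more genes. Penk and Oprk1, both of L6-Npy, were not detected together more than apart: 68 of 108 cells with Penk had Oprk1 (62.96%), against 65.29% of cells without Penk, and 48.48% against 49.02% after thinning. Pdyn, the precursor of the kappa ligand, was found in only 10 of the 837 L6-Npy cells. In Vip cells, 141 held both Penk and Pnoc, and Pnoc was detected in 53.41% of cells with Penk and 64.89% of cells without it. After thinning, which kept only the 211 deeper of the 489 Vip cells, these were 51.02% and 68.14%. In Sst cells, Penk was found in 4 of the 72 cells with Pdyn (5.556%) and 11.57% of those without, and Pnoc in 5 (6.944%) and 15.43%. In L2/3-Calb1, Oprl1 was found in 42.62% of cells with Pdyn and 38.46% of cells without it, and in 21.52% and 22.84% after thinning.

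The viral barcode, carried back from the axon terminals, marks neurons that project to an injected target. The paper reports many zero barcode counts in these single-cell libraries and called projections from separately amplified ones. Barcode-zero neurons are therefore those with no barcode detected, and they may still project. Those in the sorted pool had themselves been sorted as EGFP-positive. The matrices carry a pooled barcode row, taken to be the sum of the 5 barcodes (not tested), so that neurons could be split into those with no barcode UMI and those with 5 or more, but not by target. The 2 cell groups of each subtype were compared in all 4 libraries with the library as a block, over the subtypes with enough cells. Neurons with many barcode UMIs also had more UMIs in all, with medians of 19806.5 against 17807 in L6-Npy and 25553.5 against 19306.5 in L5-S100b of unsorted library 1. The part of this depth difference in the results was not tested beyond the depth limits given here.

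Oprk1 fell in barcode-high neurons of L5-S100b. There the barcode-zero neurons (195 cells) had 13.2, 9.72 and 8.70 CPM in unsorted libraries 1 to 3, and 5.56 CPM in the sorted pool. The barcode-high neurons (958 cells) had 3.53, 1.79 and 4.25 CPM, and 3.45 in the sorted pool. Oprk1 was thus lower in 4 of 4 libraries (log2 fold change -1.51, SE 0.337, adjusted p = 0.00377), although the sums behind it were 38 and 92 UMIs. It was the 1 member called of 3 tested in L5-S100b, where 2.64% of 12030 genes were called (1.07% higher and 1.57% lower). The call was lost without unsorted library 1 (adjusted p = 0.102), without unsorted library 2 (adjusted p = 0.0601), with no library block (adjusted p = 0.0879) and among neurons of 15000 to 35000 UMIs (adjusted p = 0.108). Without unsorted library 1 Penk was called instead (log2 fold change -3.25, adjusted p = 0.0279).

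In L6-Npy, barcode-zero neurons (232 cells) had Oprk1 levels of 114.4, 97.9 and 112.8 CPM, and 118.2 in the sorted pool, and barcode-high neurons (535 cells) 70.1, 81.9 and 80.1 CPM, and 83.4 in the sorted pool. The 2 cell groups did not overlap and the difference had the same sign in 4 of 4 libraries, but its size stayed under the limit (log2 fold change -0.47, SE 0.0861, adjusted p = 9.18e-04), so that 0 of the 3 members tested with edgeR were called, where 0.775% of 10839 genes were (0.600% higher and 0.175% lower). Without unsorted library 2 it was called (-0.55, adjusted p = 1.46e-04). The adjusted p ranged from 9.28e-05 to 0.633 over the alternatives, being 0.633 with no library block, 0.0685 with barcode-positive neurons taken at 1 or more UMIs and 0.151 under DESeq2.

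In L6-Syt6, 0 of 6 members tested with edgeR were called, where 1.67% of 13436 genes were (0.796% higher and 0.878% lower). This rested on 1635 barcode-high and 2327 barcode-zero neurons. Oprm1 came nearest, with 1.72, 1.84, 1.69 and, sorted, 2.23 CPM in barcode-zero and 1.12, 0.818, 1.02 and 0.535 in barcode-high neurons. It was lower in 4 of 4 libraries (log2 fold change -0.95, SE 0.282, unadjusted p = 0.00759, adjusted p = 0.0745), which missed the threshold. It was the 1 member of 6 with an unadjusted p under 0.05 in L6-Syt6, beside 3329 of all 13436 genes, and DESeq2 also called 0. The sorted pool alone had a raised Oprk1 in barcode-zero L6-Syt6 neurons, 5.20 against 1.07 CPM in barcode-high ones, where unsorted values ran from 0.242 to 0.715. In the other 3 libraries Oprk1 was higher in barcode-high neurons. The sums over all 4 libraries were 32 UMIs in barcode-high and 28 in barcode-zero neurons.

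In L2/3-Rorb, 0 of 2 members tested were called, where 0.142% of 10572 genes were (0.104% higher and 0.0378% lower). The edgeR estimate for Oprk1 was -0.76 (log2, SE 0.428, unadjusted p = 0.0796, adjusted p = 0.764) and that for Oprl1 -0.40 (unadjusted p = 0.0351, adjusted p = 0.662). Oprl1 was the 1 member with an unadjusted p under 0.05, beside 720 of all 10572 genes. DESeq2 called 0 members in L2/3-Rorb and 0 in L6-Npy. Whether the difference in Oprk1 differed between subtypes was not tested.

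**Figure D4:**
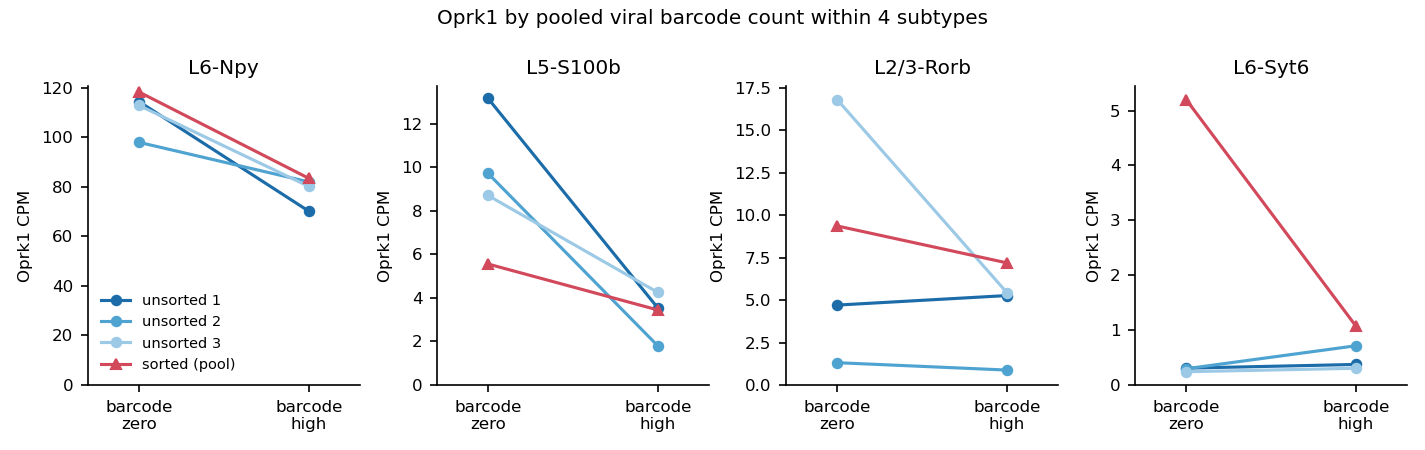
Oprk1 level in CPM (vertical axes, linear from 0) in neurons with no barcode UMI and with 5 or more, in 4 excitatory subtypes. Each line joins the 2 cell groups of 1 library, 3 unsorted and 1 sorted. All 4 lines fall in L6-Npy (from 97.9 to 118.2 down to 70.1 to 83.4 CPM) and in L5-S100b.

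Genes that make, degrade or transmit the peptides were read from a fixed list of 37, covering the precursor gene Pomc, prohormone processing enzymes, peptidases, inhibitory G protein subunits, potassium and calcium channels, RGS proteins, receptor kinases, arrestins and adenylyl cyclases. Inhibitory cells differed from excitatory neurons in 18 of 36 tested (50.0%), 7 higher and 11 lower, beside 40.7% of all genes tested. The median log2 fold change of the 36 was -0.2271, against -0.0072 over all genes.

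Among the processing enzymes, the convertase genes Pcsk1 (26.4 against 38.6 CPM, log2 fold change -0.55, or -0.47 and under the size limit without unsorted library 1) and Pcsk2 (104.8 against 392.4 CPM, -1.90), which cleave the precursors, and Cpe (-1.03), which trims the cleaved ends, fell in inhibitory cells. Pam, whose product amidates peptides, rose (202.9 against 57.1 CPM, 1.83). The peptidase genes Mme (1.72), encoding the enkephalin-degrading neprilysin, Ace (2.59), Ece1 (0.83) and Ece2 (25.2 against 1.71 CPM, 3.89) rose and Thop1 (-0.87) fell.

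On the receptor side, the G protein subunit gene Gnaz (-1.01) and the potassium channel genes Kcnj6 (-0.95) and Kcnj9 (-0.89) fell in inhibitory cells. RGS genes, whose products shorten G protein signals, also fell: Rgs4 (71.8 against 387.6 CPM, -2.43), Rgs7 (-0.61) and Rgs14 (0.553 against 30.4 CPM, -5.77). The calcium channel gene Cacna1b rose (0.93), and the cyclase genes moved apart, Adcy1 lower (-1.62) and Adcy8 higher (1.03).

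Within the inhibitory cells, 11 of 35 pathway genes were called in Sst cells (31.43%, 7 higher and 4 lower), 13 in Vip cells (37.14%, 4 higher and 9 lower), 8 in Lamp5 cells (22.86%, 2 higher and 6 lower) and 15 between Lhx6 and Adarb2 cells (42.86%, 8 higher and 7 lower). The shares over all genes were the 20.6%, 22.2%, 16.9% and 21.6% given above. In Sst cells, Rgs9 (45.2 against 7.40 CPM, log2 fold change 2.60) and Rgs4 (1.44) rose with the receptors, and Pcsk1 (-1.15) and Pcsk2 (-1.20) fell. In Vip cells the convertase genes Pcsk1 (1.86) and Pcsk2 (1.41) rose with Penk, while Mme (-4.11) and Rgs4 (-3.17) fell. Lamp5 cells, highest in Pnoc, had lower Pcsk1 (-2.51) and higher Adcy1 (2.13) and Grk5 (2.24).

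The barcode split called few of these genes. Mme was higher in barcode-high L6-Syt6 neurons (log2 fold change 0.88, SE 0.166, adjusted p = 0.0174), the 1 called of 34 tested (2.941%, beside 1.67% of all genes). Without any 1 of unsorted libraries 1, 2 and 3 this call was lost (adjusted p = 0.0922, 0.139 and 0.0720), as it was with barcode-positive neurons at 1 or more UMIs (adjusted p = 0.0815). Pam was lower in barcode-high L5-S100b neurons (-0.54, adjusted p = 9.57e-04), the 1 called of 35 (2.857%, beside 2.64% of all genes). It was no longer called without unsorted library 1 (-0.36, adjusted p = 0.106), without unsorted library 3 (-0.50, just under the size limit), with no library block (adjusted p = 0.131) or among neurons of 15000 to 35000 UMIs (adjusted p = 0.143). With edgeR 0 of 32 were called in L6-Npy, beside 0.775% of all genes, and 0 of 34 in L2/3-Rorb, beside 0.142%. An unadjusted p under 0.05 was seen for 5 in L6-Npy, beside 1132 of all 10839 genes. In L2/3-Rorb it was seen for 4, beside 720 of 10572. DESeq2 called 0 in both subtypes.

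**Figure D5:**
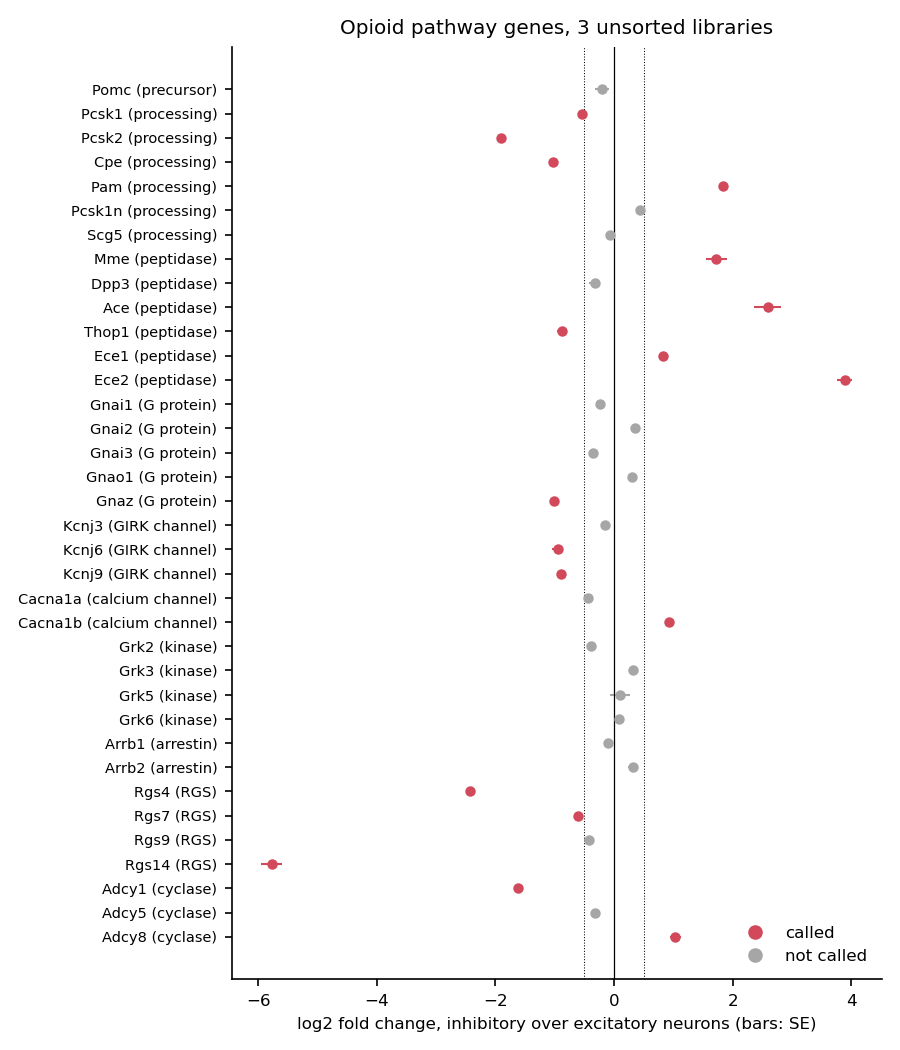
Log2 fold change of inhibitory over excitatory neurons (horizontal axis) for the 36 pathway genes tested, with bars of 1 SE from edgeR, grouped by role. Red points passed the adjusted p and the size limit of 0.5 marked by dotted lines. Ece2 (3.89) lies farthest to the right and Rgs14 (-5.77) farthest to the left.

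Genes whose pattern over the 8 neuron groups was most like that of an opioid gene were ranked by Pearson's r of log2(CPM + 1) over 24 sums (8 groups in 3 unsorted libraries), among 10621 genes. The 24 sums share libraries and are not independent, so r is a description. Slc7a11 (r = 0.871), 3110039M20Rik (0.864) and Tom1l2 (0.844) were nearest to Oprk1, Eps8 (0.952), Hcrtr2 (0.951) and Slc38a1 (0.948) to Oprm1, and Larp1b (0.847), Tm6sf1 (0.821) and Cav2 (0.821) to Oprd1. Rab9b (0.883), Tmem150c (0.881) and Prkar1a (0.878) were nearest to Oprl1. Among the precursors, Pcdh8 (0.915), Necab2 (0.904) and Grik2 (0.895) were nearest to Pdyn, Ubash3b (0.934), Asic4 (0.918) and Ifitm10 (0.912) to Penk, and Egfr (0.971), AF529169 (0.965) and Hapln1 (0.965) to Pnoc.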

How the data were processed

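The authors aligned and counted the reads with Cell Ranger against mm10 with the projection barcodes added, and deposited matrices of UMI counts per gene and cell together with a table of their excitatory neurons, whose mitochondrial share is in percent. They used Seurat 3.1.4 and Scanpy. From these counts, cells were summed per library and cell group (at least 10 cells), leaving out the pooled viral barcode row (0.0319% to 0.0384% of UMIs). Sums were tested with edgeR 4.0.16 in R 4.3.3 (TMM scaling, filterByExpr, library as block), and with DESeq2 1.42.0 as an alternative. Both cell groups of a comparison came from the same library, hence the block. Correlations of deviations within libraries were 0.10 to 0.27 for inhibitory against excitatory cells, 0.16 to 0.74 for the barcode groups and -0.0004 to 0.095 for the inhibitory classes. Tables were made with Python 3.11.15 (pandas 2.3.3, NumPy 2.4.6, SciPy 1.17.1). The fits were first tested on simulated data. The genes named are the 7 members, the called genes of the pathway list and the 3 most alike genes of each member. Members and lists were chosen with earlier results of these data known. Inhibitory cells and marker classes were not filtered on quality, and 1278 of the 1353 inhibitory cells lie within limits on genes (500 to 8000), UMIs (1000 to 60000) and the mitochondrial share (below 20%). The unsorted libraries are separate mice, and the sorted pool of 3 mice counts as 1 sample. Tests used 3 libraries, or 4 in the barcode comparisons. With so few, edgeR estimates the spread of a gene partly from all genes, so p-values do not measure the spread between animals alone.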

Additional observations from a re-analysis of the deposited data

How the results depend on the processing

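Of 31 pairs of member and comparison that were called, refitted 279 times under the alternatives, 262 refits were still called and 0 changed sign. The calls that were lost stand beside their results. In barcode-high against barcode-zero L5-S100b neurons, the members called went from 1 to 0 with no replicate block, to 0 among neurons of 15000 to 35000 UMIs and to between 0 and 1 with 1 library left out. In L6-Npy they were 0 to 1 with 1 library left out. Directions that changed were all of members that were not called, and the cause was not tested. For L6-Syt6 these were Oprd1 with no replicate block (log2 fold change 0.017), Oprl1 without unsorted replicate 1 (0.046), without unsorted replicate 3 (0.021), without the sorted library or with the unsorted libraries only (0.044), with barcode-positive neurons at 1 or more UMIs (0.010) and at 15000 to 35000 UMIs (0.039), Pdyn without unsorted replicate 2 (0.17) and Penk without unsorted replicate 2 (-0.042). For L6-Npy it was Penk without unsorted replicate 3 (0.16). With 1 library left out, the estimates ran from -0.15 to 0.046 for Oprl1, from -1.05 to 0.17 for Pdyn and from -0.042 to 1.38 for Penk in L6-Syt6, and from -0.35 to 0.16 for Penk in L6-Npy. Removing the replicate block changed no other member's call, leaving aside Oprd1 in the inhibitory classes, which the filter then removed. It also ended the call of Pam in L5-S100b. Of the other pathway calls, DESeq2 did not make those of Ece1, Kcnj6 and Adcy8 in Sst cells, of Kcnj6 in Vip and Lhx6 cells and of Arrb1 in Lamp5 cells. Kcnj6 in Sst cells was also lost without unsorted replicate 1 and Arrb1 in Lamp5 cells without unsorted replicate 3. Over all genes, DESeq2 called 1362 in Sst (edgeR 2372), 1503 in Vip (2563), 1101 in Lamp5 (1952) and 1523 between Lhx6 and Adarb2 cells (2568). In the barcode comparisons the counts ran from 25 to 325 (225 as reported) in L6-Syt6, 56 to 355 (318) in L5-S100b, 0 to 115 (84) in L6-Npy and 0 to 35 (15) in L2/3-Rorb, where 0 came from DESeq2 and from removing the block, and in L6-Npy from removing the block. With no filter on low counts the median log2 fold change of all genes moved to -0.11 between inhibitory and excitatory cells and to -0.19 in Lamp5 cells. Among levels given with no test, 53 moved by less than the spread between libraries and 17 by more. Leaving out cells whose barcode occurs in more than 1 library, chosen after seeing the data, changed no call of a member or pathway gene. Over all genes the number called did move, for example from 2372 to 2388 in Sst cells. The Pvalb comparison and its alternatives were not run, since unsorted library 3 held 9 such cells. Depth limits the reading of Oprd1 and Oprm1, whose UMIs came mostly 1 to a cell.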
